A study of Mus musculus with 17 samples.

Results

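The unfolded protein response and the secretory pathway were followed through 39 genes in mouse plasmacytoid dendritic cells (pDC), the dendritic cell type specialised in making type I interferon. The genes were taken by name: 14 chaperones and folding enzymes of the endoplasmic reticulum (ER), 7 genes of ER-associated degradation, 10 genes of the translocon, the translocon-associated protein complex and signal peptidase, and 8 stress sensors and transcription factors. A gene counted as measured when the array had a probe set annotated to it alone, and 38 of the 39 were measured, among 19751 genes in all. Sec61g, the small gamma subunit of the translocon channel, was on the array only through 3 probe sets shared with the predicted genes Gm11575 and Gm4184 and has no value here.

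The pDC came from bone marrow of C57BL/6 mice, with no transgene or deletion named. They were enriched by magnetic removal of other cells and sorted as CD11c-intermediate, B220+ and SiglecH+ cells. Total RNA was hybridised to 17 single-channel Affymetrix arrays: 2 of cells in medium alone (replicates 1 and 3), 3 with LIF, 3 for each of 2 CpG classes (CpG-A and CpG-B), and 3 for each class together with LIF. LIF (leukaemia inhibitory factor, a cytokine acting through gp130 and STAT3) was used at 10 ng/ml, alone or from 1 h before CpG, for 20 to 24 h. CpG-A (oligonucleotide 2216) and CpG-B (oligonucleotide 1826), DNA ligands of Toll-like receptor 9, were used at 6 µg/ml for 19 to 23 h by the treatment protocol and for 18 to 24 h by the design text. Nothing in the labels ties replicates to separate mice or cultures, so p-values measure the spread between these arrays, which may be technical. In bulk RNA, a change in the share of cells of a type and a change in RNA per cell cannot be told apart.

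Proteins bound for the cell surface or for secretion enter the ER through the Sec61 channel, lose their signal peptide to signal peptidase, and are folded there by chaperones such as BiP (Hspa5) and by protein disulphide isomerases. Proteins that fail to fold are handed back to the cytosol for degradation. When unfolded proteins build up, the sensors IRE1α (Ern1), PERK (Eif2ak3) and ATF6 start the unfolded protein response: IRE1α splices Xbp1 mRNA into the form that encodes the active factor, PERK slows translation while favouring ATF4, and ATF6 is cut into a transcription factor. Activated pDC secrete large amounts of interferon and cytokines, which makes this machinery part of their equipment.

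The deposited intensities have lost their decimal marks, so each value is known up to a factor of 10, or 3.32 on the log2 scale. Every difference between groups is therefore given as its nearest reading, the one within 1.66 of 0 (3.16-fold), and a second reading lies 3.32 away on the other side of 0. Differences were tested with limma over all genes, and an adjusted p under 0.05 makes a call. A called gene is said to read higher or lower where the reading is at most 1.11 in size (2.15-fold), because its second reading would then be 4.64-fold or more the opposite way. This limit is a convention that takes such large changes as absent. It was not tested, and every direction given below rests on it. For larger readings the direction is open, and both readings are given. Errors are standard errors of the difference between group means unless marked as SD, and values of single arrays are log2 distances from the mean of the medium arrays, with each group placed at its nearest reading.

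Many ER stress genes are known to carry short response elements near their start, and the elements found among these genes are shown because the group is known for them. In the 250 bases before the RefSeq start sites (GRCm38.p6), available for 32 of the 39 genes, 8 genes held the ER stress response element, ERSE (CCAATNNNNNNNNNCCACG, either strand), a share of 25.0% against 0.13% of the 27025 genes with such an entry. ERSE is bound by ATF6 and XBP1 together with NF-Y, as background knowledge. Capitals mark the fixed letters of each motif, and a site lying opposite to the gene is written on its own strand:
Hspa5, chr2:34772025-34772043 (+): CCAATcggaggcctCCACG
Pdia6, chr12:17266491-17266509 (+): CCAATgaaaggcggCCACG
Creld2, chr15:88819520-88819538 (-, opposite to the gene): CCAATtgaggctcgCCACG
Hsp90b1, chr10:86705638-86705656 (-): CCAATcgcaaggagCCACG
Hsp90b1, chr10:86705533-86705551 (+, opposite to the gene): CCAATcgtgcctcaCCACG
Canx, chr11:50325800-50325818 (-): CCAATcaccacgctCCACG
Dnajc3, chr14:118937827-118937845 (+): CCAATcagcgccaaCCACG
Syvn1, chr19:6046532-6046550 (+): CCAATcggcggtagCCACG
Derl3, chr10:75893242-75893260 (-, opposite to the gene): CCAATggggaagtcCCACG
Herpud1 held the shorter ERSE-II (ATTGG and CCACG with 1 base between, in 0.037% of genes) and the CARE element TTGCATCA (0.918% of genes), the UPRE letters TGACGTGG (0.603%) stood before Txndc5 and Txndc11, and the CRE letters TGACGTCA (1.769%) before Ppp1r15a. ERSE, ERSE-II and the complement of UPRE share the letters CCACG, and no listed site overlapped another.

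Whole 250-base stretches follow for 4 genes whose results differ: Hspa5, called with both CpG classes; Pdia6 and Derl3, lower with CpG-A than with CpG-B; and Txndc5, higher with CpG-A than with CpG-B. They run 5′ to 3′ along the gene and end at the base before the start site, with ERSE in capitals in the first 3 (as its complement in Derl3) and UPRE in capitals in the last, which is 1 of 3 RefSeq starts of Txndc5:
Hspa5, chr2:34771840-34772089 (+): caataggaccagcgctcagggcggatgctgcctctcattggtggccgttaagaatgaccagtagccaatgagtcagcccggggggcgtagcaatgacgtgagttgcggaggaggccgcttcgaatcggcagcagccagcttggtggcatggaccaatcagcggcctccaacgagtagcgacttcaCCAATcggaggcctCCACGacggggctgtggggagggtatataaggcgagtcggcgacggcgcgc
Pdia6, chr12:17266339-17266588 (+): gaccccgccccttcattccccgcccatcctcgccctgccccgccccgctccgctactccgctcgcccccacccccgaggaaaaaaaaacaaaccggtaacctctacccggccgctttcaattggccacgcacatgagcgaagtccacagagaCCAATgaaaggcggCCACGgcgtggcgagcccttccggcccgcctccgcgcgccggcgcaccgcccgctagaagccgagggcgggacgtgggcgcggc
Derl3, chr10:75893148-75893397 (+): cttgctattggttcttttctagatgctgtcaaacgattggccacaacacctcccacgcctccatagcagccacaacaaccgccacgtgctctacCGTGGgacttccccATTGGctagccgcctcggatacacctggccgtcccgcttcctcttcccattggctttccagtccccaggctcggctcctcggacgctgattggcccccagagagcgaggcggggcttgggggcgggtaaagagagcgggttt
Txndc5, chr13:38527915-38528164 (-): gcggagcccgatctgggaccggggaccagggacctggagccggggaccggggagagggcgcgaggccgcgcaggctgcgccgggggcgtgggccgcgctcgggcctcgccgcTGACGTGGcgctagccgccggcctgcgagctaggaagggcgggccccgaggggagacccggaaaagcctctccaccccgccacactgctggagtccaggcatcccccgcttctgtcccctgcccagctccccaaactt
These matches describe the letters in the windows and do not show binding.

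The first question was what each CpG class does to these genes in cells without LIF, and both comparisons use the same 2 medium arrays. With CpG-A, 27 of the 38 genes were called (71.1%), where 16.7% of all genes were: 17 read higher (4.91% of all genes), 1 read lower (7.15%) and 9 were open. With CpG-B, 28 were called (73.7%) against 19.2% of all genes, 16 higher (6.94%), 1 lower (7%) and 11 open. The genes were chosen with earlier results of these data known. Here and below, their shares beside those of all genes are thus no independent test. The median reading was 0.66 with CpG-A and 0.61 with CpG-B, beside medians of -0.02 and -0.05 over all genes, with the sign of the 9 and 11 open genes unsettled. Without regard to sign, the median size was 0.75 and 0.78, beside 0.20 and 0.21 over all genes. Of the 8 genes with ERSE, 5 were called with CpG-A and 7 with CpG-B, and of the 23 measured genes with a promoter entry but no ERSE, 16 were called in each comparison.

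**Figure D1:**
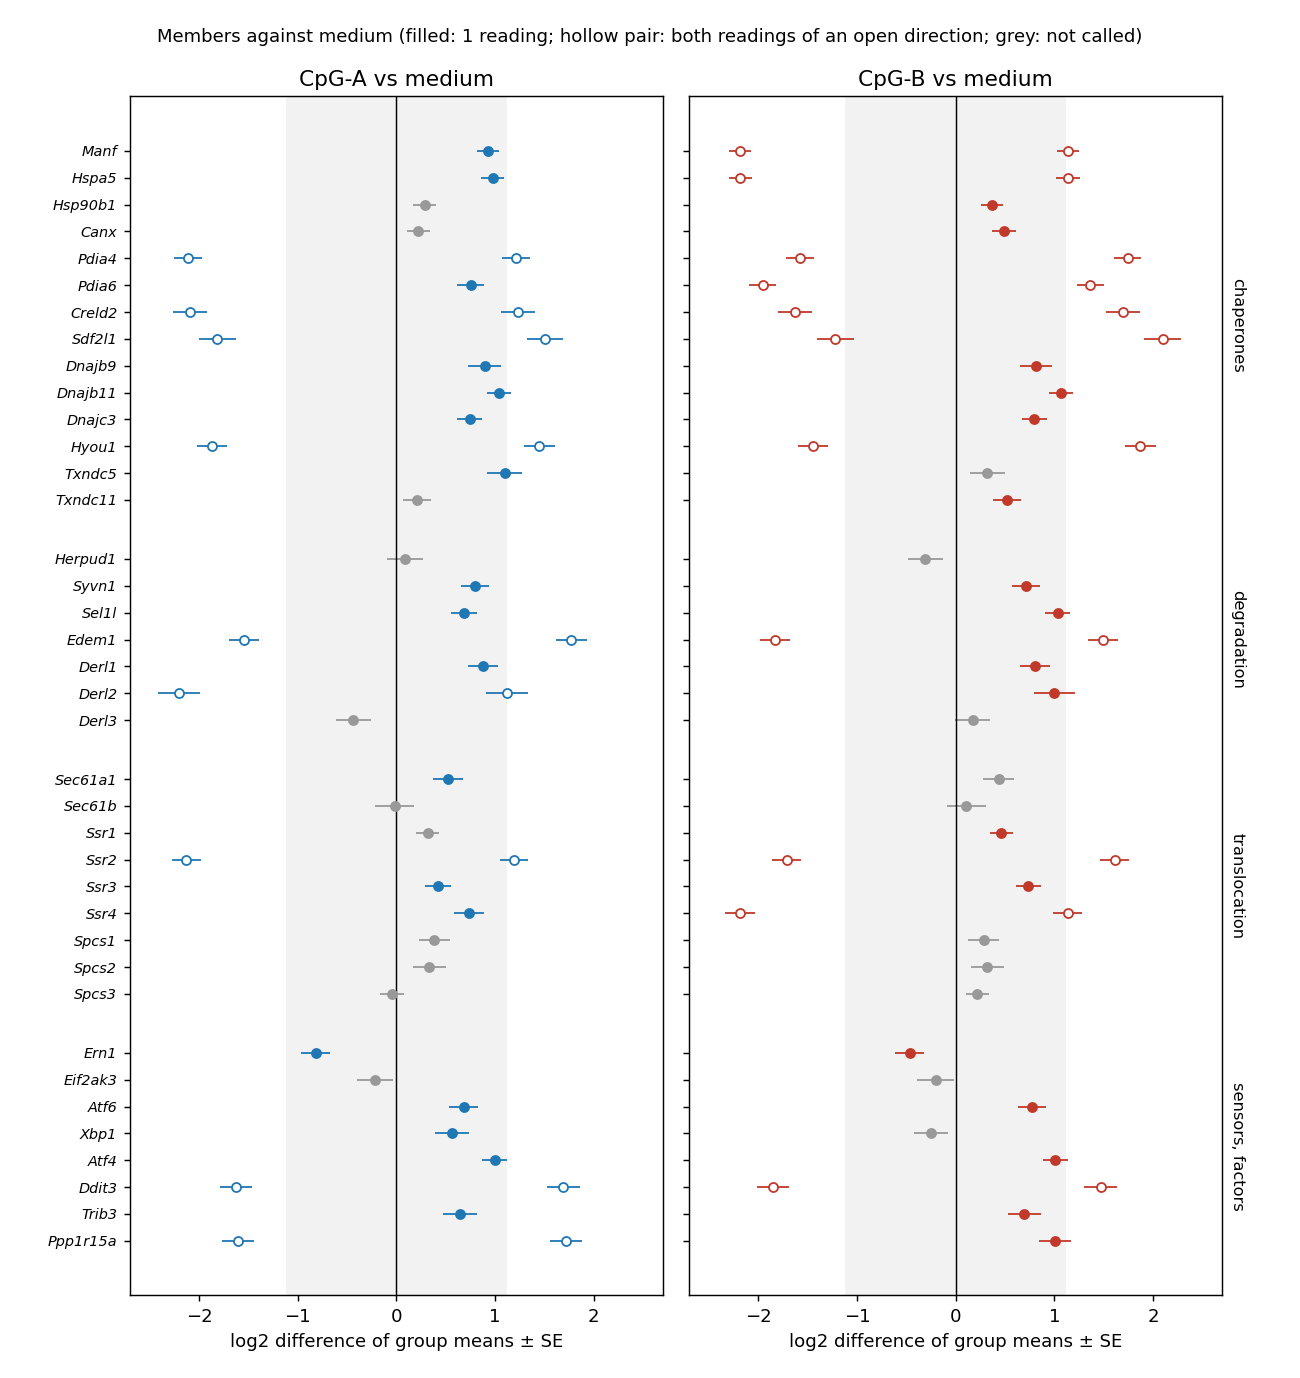
Difference from medium (log2, points) ± SE (bars) of the 38 measured genes, by role, for CpG-A (left, blue) and CpG-B (right, red), n = 3 and 2 arrays. The grey band is the range in which a called direction is given, hollow pairs are the 2 possible readings of a called gene outside it, and grey points were not called. Most called single readings lie to the right of 0, and Ern1 is the gene called lower in each panel.

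Among the 14 ER chaperones and folding enzymes, 11 were called with CpG-A (7 higher, 4 open) and 13 with CpG-B (6 higher, 7 open), and none was called lower. Hspa5, the Hsp70 chaperone BiP, lay at 1.01, 0.87 and 1.05 in the CpG-A arrays and at 1.09, 1.22 and 1.11 in the CpG-B arrays, with the medium arrays 0.05 to either side of their mean. Each CpG array was thus clear of both medium arrays. Its reading was 0.98 ± 0.12 with CpG-A (1.97-fold, adjusted p = 1.53e-05) and 1.14 ± 0.12, or -2.18, with CpG-B (adjusted p = 3.96e-06). Manf, a secreted factor that is retained in the ER with BiP, stood at 0.90, 0.97 and 0.91 with CpG-A and at 1.14, 1.10 and 1.17 with CpG-B, around medium values of 0.07 and -0.07. The 3 groups did not overlap in Manf, whose reading was 0.93 ± 0.11 with CpG-A (adjusted p = 1.40e-05) and 1.14 ± 0.11, or -2.18, with CpG-B (adjusted p = 2.67e-06). Dnajb11, a J-domain partner of BiP, overlapped between the CpG classes, at 0.92, 1.09 and 1.12 with CpG-A and at 1.07, 1.14 and 1.00 with CpG-B. It read 1.04 ± 0.12 (adjusted p = 1.09e-05) and 1.07 ± 0.12 (adjusted p = 7.74e-06), from medium arrays within 0.01 of their mean. The other J-domain proteins also read higher: Dnajb9 by 0.90 ± 0.16 and 0.81 ± 0.16, and Dnajc3, also an inhibitor of PERK, by 0.74 ± 0.13 and 0.80 ± 0.13, with CpG-A and CpG-B in turn.

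Pdia6, a protein disulphide isomerase that binds BiP and IRE1α, lay at 0.69, 0.66 and 0.90 with CpG-A and at 1.41, 1.44 and 1.25 with CpG-B, from medium arrays at 0.17 and -0.17. It read 0.75 ± 0.14 with CpG-A (adjusted p = 6.44e-04) and 1.37 ± 0.14, or -1.96, with CpG-B (adjusted p = 3.17e-06). Pdia4, another isomerase, lay at 1.12, 1.24 and 1.27 with CpG-A, a reading of 1.21 ± 0.14 or -2.11 (adjusted p = 1.06e-05). Its CpG-B arrays fell at the far side of the scale, at -1.60, -1.42 and -1.73, a reading of -1.58 ± 0.14 or 1.74 (adjusted p = 1.51e-06). The folding factor Creld2 showed the same split, with CpG-A arrays at 1.09, 1.13 and 1.48 (1.23 ± 0.17 or -2.09, adjusted p = 5.88e-05) and CpG-B arrays at -1.77, -1.33 and -1.77 (-1.62 ± 0.17 or 1.70, adjusted p = 4.57e-06). The signs are opposite although the CpG classes are 0.53 apart in Pdia4 and 0.47 in Creld2 at their closest, with CpG-B above CpG-A.

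Hyou1, the large ER chaperone that exchanges nucleotide on BiP, lay at 1.31, 1.49 and 1.55 with CpG-A (1.45 ± 0.15 or -1.87, adjusted p = 5.19e-06). With CpG-B it lay at -1.48, -1.21 and -1.65 (-1.45 ± 0.15 or 1.87, adjusted p = 4.67e-06). Sdf2l1, a partner of the ER J-domain proteins, lay at 1.34, 1.57 and 1.61 with CpG-A (1.51 ± 0.19 or -1.82, adjusted p = 1.91e-05) and at -1.26, -0.97 and -1.43 with CpG-B (-1.22 ± 0.19 or 2.10, adjusted p = 1.15e-04). A chain chosen after the values were seen adds the smaller step between the CpG classes to the reading of 1 class. Started from CpG-A, it puts CpG-B at 1.74 for Pdia4, 1.70 for Creld2, 1.87 for Hyou1 and 2.10 for Sdf2l1. Started from CpG-B, it puts CpG-A at -2.11, -2.09, -1.87 and -1.82 in turn, so the direction of all 4 genes is open with both classes.

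The remaining chaperones moved less or by class. Txndc5, an ER thioredoxin, lay at 1.01, 1.30 and 0.99 with CpG-A, clear of the medium arrays at 0.16 and -0.16, and read 1.10 ± 0.18 higher (adjusted p = 2.24e-04). Its CpG-B arrays, at 0.12, 0.63 and 0.22, overlapped those of medium (0.32 ± 0.18, adjusted p = 0.248). Hsp90b1 (GRP94), the Hsp90 of the ER, read 0.29 ± 0.12 with CpG-A, which was not called (adjusted p = 0.108), and 0.37 ± 0.12 higher with CpG-B (adjusted p = 0.0305). Canx (calnexin), a lectin chaperone of glycoproteins, read 0.22 ± 0.12 with CpG-A (adjusted p = 0.248) and 0.49 ± 0.12 higher with CpG-B (adjusted p = 0.00572). Txndc11 read 0.21 ± 0.14 (adjusted p = 0.392) and 0.52 ± 0.14 higher (adjusted p = 0.0118). These CpG-B calls were lost when some single arrays were left out. Canx was lost without medium replicate 3, and Hsp90b1 and Txndc11 without either medium array, which leaves 1 array in that group. Hsp90b1 was also lost without CpG-B replicate 1 (adjusted p = 0.0787) or 2 (0.0846). Over all alternatives the CpG-B readings ran from 0.34 to 0.41 for Hsp90b1, from 0.45 to 0.55 for Canx and from 0.49 to 0.55 for Txndc11.

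**Figure D2:**
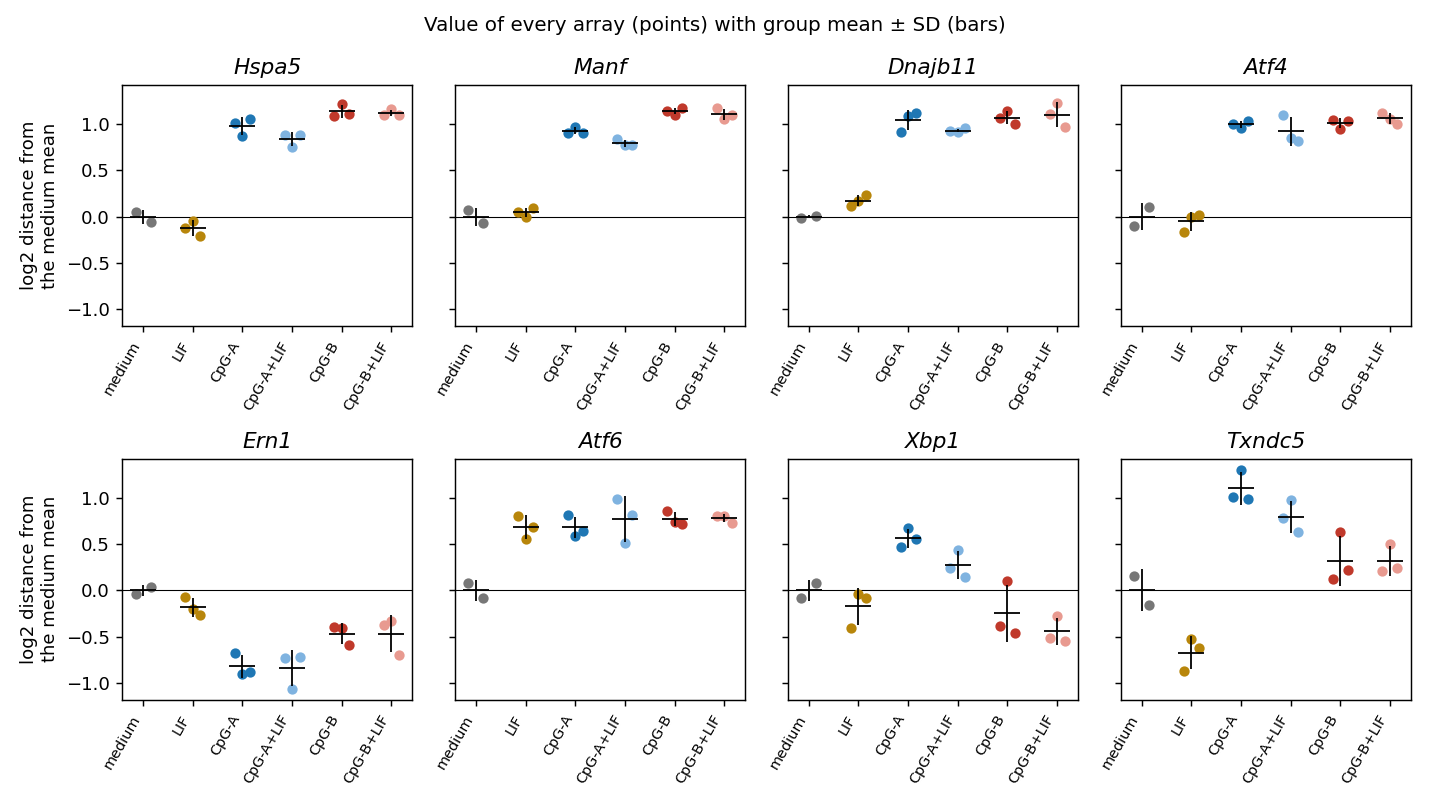
Log2 distance of every array from the medium mean (points) for 8 genes, with the group mean ± SD (black bars; n = 2 for medium, 3 for the other groups). The CpG arrays of Hspa5, Manf, Dnajb11 and Atf4 lie near 1 with and without LIF, Ern1 lies below medium, every treated array of Atf6 lies above medium, and Xbp1 and Txndc5 are higher with CpG-A than with CpG-B.

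Of the 7 genes of ER-associated degradation, 5 were called with each CpG class. Edem1, a lectin that takes misfolded glycoproteins out of folding cycles, had the smallest adjusted p of all 38 genes with CpG-A. Its CpG-A arrays lay at -1.57, -1.47 and -1.60 (-1.55 ± 0.15 or 1.78, adjusted p = 3.67e-06) and its CpG-B arrays at 1.52, 1.53 and 1.42 (1.49 ± 0.15 or -1.83, adjusted p = 3.79e-06), around medium values of -0.14 and 0.14. The CpG classes are 0.28 ± 0.14 apart in Edem1 when placed at their closest, so that the chain puts CpG-A at 1.78 if started from CpG-B, and CpG-B at -1.83 if started from CpG-A. The ubiquitin ligase Syvn1 (HRD1) read 0.79 ± 0.14 and 0.71 ± 0.14 higher with CpG-A and CpG-B, and its adaptor Sel1l 0.69 ± 0.13 and 1.03 ± 0.13 higher. Derl1, a membrane protein of the retrotranslocation channel, read 0.88 ± 0.16 and 0.80 ± 0.16 higher, and its relative Derl2 read 1.12 ± 0.21, or -2.20, with CpG-A and 1.00 ± 0.21 higher with CpG-B.

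Herpud1, a stress-induced organiser of the degradation complex, and Derl3 were not called. Herpud1 read 0.08 ± 0.18 and -0.31 ± 0.18. Derl3 lay at -0.37, -0.37 and -0.58 with CpG-A and at 0.48, -0.11 and 0.15 with CpG-B, around medium values of -0.16 and 0.16. Its CpG-A arrays were below both medium arrays (-0.44 ± 0.18, adjusted p = 0.114), and its CpG-B arrays overlapped them (0.17 ± 0.18, adjusted p = 0.59). The CpG-B call of Derl2 was lost without medium replicate 1 (0.82, adjusted p = 0.0523).

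In the translocation machinery 4 of 9 measured genes were called with CpG-A (3 higher, 1 open) and 4 with CpG-B (2 higher, 2 open). The calls lay mainly in the translocon-associated protein complex, which sits beside Sec61 and aids entry of some signal sequences. Ssr2, its beta subunit, lay at 1.15, 1.42 and 1.02 with CpG-A and at 1.55, 1.76 and 1.52 with CpG-B, from medium arrays 0.06 to either side of their mean. No array of Ssr2 overlapped between the 3 groups, and it read 1.19 ± 0.15, or -2.13 (adjusted p = 1.69e-05), and 1.61 ± 0.15, or -1.71 (adjusted p = 1.74e-06). Ssr4, the delta subunit, read 0.74 ± 0.15 higher and 1.13 ± 0.15, or -2.19. Ssr3, the gamma subunit, read 0.42 ± 0.13 and 0.74 ± 0.13 higher, and Ssr1, the alpha subunit, read 0.32 ± 0.12, not called, and 0.46 ± 0.12 higher.

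Sec61a1, the pore subunit of the channel, read 0.52 ± 0.16 higher with CpG-A (adjusted p = 0.0262) and 0.44 ± 0.16 with CpG-B, which was not called (adjusted p = 0.0601). Sec61b, the beta subunit, read -0.01 ± 0.20 and 0.11 ± 0.20. The signal peptidase genes were not called: Spcs1 read 0.38 ± 0.16 and 0.29 ± 0.16, Spcs2 0.33 ± 0.17 and 0.32 ± 0.17, and Spcs3 -0.04 ± 0.12 and 0.22 ± 0.12. Several calls were lost when some single arrays were left out. With CpG-A, the adjusted p without medium replicate 1 was 0.221 for Sec61a1 (0.43) and 0.298 for Ssr3 (0.31), Sec61a1 was also lost without medium replicate 3 (0.0594) or CpG-A replicate 1 (0.06) or 2 (0.0627), and Ssr3 without CpG-A replicate 1 (0.0612) or 2 (0.102). With CpG-B, Ssr1 was lost without medium replicate 3 (0.37, adjusted p = 0.124).

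The 8 sensors and transcription factors were the most mixed group, with 7 called with CpG-A (4 higher, 1 lower, 2 open) and 6 with CpG-B (4 higher, 1 lower, 1 open). Ern1, which encodes the sensor IRE1α, was the gene that read lower. Its arrays lay at -0.68, -0.90 and -0.88 with CpG-A and at -0.40, -0.41 and -0.59 with CpG-B, below the medium arrays at -0.04 and 0.04. The reading was -0.82 ± 0.15 with CpG-A (1.76-fold, adjusted p = 6.15e-04) and -0.47 ± 0.15 with CpG-B (adjusted p = 0.0324). The CpG-B call of Ern1 was lost without medium replicate 1 (-0.51, adjusted p = 0.1), medium replicate 3 (-0.43, adjusted p = 0.18) or CpG-B replicate 3 (-0.40, adjusted p = 0.106). Eif2ak3, which encodes the sensor PERK, lay at -0.42, 0.08 and -0.31 with CpG-A and at -0.32, 0.01 and -0.29 with CpG-B, within or near the medium arrays at 0.18 and -0.18, and was not called (-0.22 ± 0.18 and -0.20 ± 0.18). Atf6, the third sensor, lay at 0.81, 0.59 and 0.64 with CpG-A and at 0.86, 0.74 and 0.72 with CpG-B, above the medium arrays at 0.08 and -0.08. It read 0.68 ± 0.14 (adjusted p = 0.00228) and 0.77 ± 0.14 higher (adjusted p = 6.75e-04).

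Xbp1, the transcription factor downstream of IRE1α, was called with CpG-A. Its arrays lay at 0.47, 0.67 and 0.55 with CpG-A, above the medium arrays at -0.08 and 0.08, and at -0.38, 0.10 and -0.46 with CpG-B, across and below them. It read 0.56 ± 0.17 higher with CpG-A (1.48-fold, adjusted p = 0.0281) and -0.25 ± 0.17 with CpG-B (adjusted p = 0.379). Its 1 probe set value does not separate spliced from unspliced mRNA. The CpG-A call of Xbp1 was lost without medium replicate 1 (0.48, adjusted p = 0.212), medium replicate 3 (0.65, 0.0719), CpG-A replicate 2 (0.51, 0.088) or CpG-A replicate 3 (0.57, 0.0569).

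Atf4, the factor whose translation PERK favours, lay at 1.00, 0.96 and 1.03 with CpG-A and at 1.05, 0.95 and 1.04 with CpG-B, from medium arrays at -0.10 and 0.10. The readings of 1.00 ± 0.13 (adjusted p = 2.33e-05) and 1.01 ± 0.13 (adjusted p = 1.82e-05) correspond to 2.00-fold and 2.02-fold. Ddit3, which encodes CHOP, a factor downstream of ATF4, lay at -1.74, -1.72 and -1.43 with CpG-A (-1.63 ± 0.16 or 1.69, adjusted p = 3.82e-06) and at 1.38, 1.75 and 1.28 with CpG-B (1.47 ± 0.16 or -1.85, adjusted p = 6.99e-06). Ppp1r15a (GADD34), the phosphatase subunit that reverses the translation block, lay at -1.75, -1.27 and -1.79 with CpG-A (-1.60 ± 0.17 or 1.72, adjusted p = 4.55e-06). With CpG-B it lay at 0.94, 1.13 and 0.95 and read 1.01 ± 0.17 higher (adjusted p = 2.12e-04). The chain started from CpG-B puts CpG-A at 1.69 for Ddit3 and 1.72 for Ppp1r15a, and started from CpG-A it puts CpG-B at -1.85 and -2.31. The higher reading of Ppp1r15a with CpG-B thus rests on the direction limit. Trib3, an inhibitor of ATF4 signalling, read 0.65 ± 0.17 and 0.70 ± 0.17 higher, and its calls were lost without medium replicate 1 (adjusted p = 0.102 with CpG-A and 0.0642 with CpG-B) or, with CpG-A, without CpG-A replicate 3 (0.057).

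The same CpG responses were then read in cells that also had LIF, where the comparison with LIF alone uses no array of the comparison with medium. With CpG-A + LIF against LIF (n = 3 and 3), 26 genes were called (68.4%) where 17.4% of all genes were: 18 higher (6.23% of all genes), 1 lower (7.29%) and 7 open. With CpG-B + LIF against LIF, 28 were called (73.7%) against 25.4%, 17 higher (10.5%), 1 lower (9.02%) and 10 open. Of the 27 genes called with CpG-A and the 26 called with CpG-A + LIF, 23 were called in both sets of arrays, and the 14 of them with both readings inside the direction limit had the same sign. For CpG-B, 24 genes were called in both sets of 28, and the 11 with both readings inside the limit had the same sign. These overlaps were not counted over all genes, so they are not shown to be particular to these genes. The median size of the shift between the sets was 0.17 for CpG-A and 0.12 for CpG-B.

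Hspa5 read 0.96 ± 0.11 with CpG-A + LIF and 1.24 ± 0.11, or -2.08, with CpG-B + LIF. Manf read 0.75 ± 0.10 and 1.06 ± 0.10 higher, Dnajb11 0.76 ± 0.11 and 0.93 ± 0.11, and Atf4 0.97 ± 0.11 and 1.11 ± 0.11 (or -2.21). The chaperones were thus called in cells with LIF as well, 13 of 14 with CpG-A + LIF and 14 of 14 with CpG-B + LIF. Edem1, open without LIF, read 1.06 ± 0.14 and 0.77 ± 0.14 higher, and Ern1 again read lower with CpG-A + LIF (-0.66 ± 0.13, adjusted p = 0.00144), while with CpG-B + LIF its reading of -0.29 was not called. By the direction limit, the gene called lower with CpG-B + LIF was Sdf2l1, at -0.95 ± 0.17 or 2.37. With CpG-A + LIF it read 1.42, or -1.90, and the CpG classes with LIF are 0.95 apart at their closest. The chain started from CpG-A + LIF puts CpG-B + LIF of Sdf2l1 at 2.37, so this direction is not settled. Spcs2, a signal peptidase subunit that was not called against medium, read 0.55 ± 0.15 (adjusted p = 0.0155) and 0.66 ± 0.15 higher (adjusted p = 0.00273). Atf6 was not called here, at 0.09 and 0.10. The widest departures between the sets were in Derl2 for CpG-A (1.12 without LIF and 0.35 with it) and in Trib3 for CpG-B (0.70 and -0.05).

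Array by array, Hspa5 lay at 0.88, 0.75 and 0.88 with CpG-A + LIF and at 1.10, 1.16 and 1.10 with CpG-B + LIF, and all of these were above the LIF arrays. Manf lay at 0.83, 0.77 and 0.78 and at 1.17, 1.05 and 1.09, with LIF arrays of at most 0.10. Atf4 lay at 1.10, 0.85 and 0.82 and at 1.12, 1.06 and 1.00, with LIF arrays of at most 0.02. None of these 3 genes overlapped between LIF and either CpG group with LIF. Edem1 lay at 1.61, 1.54 and 1.67 and at 1.31, 1.37 and 1.29, above LIF arrays at 0.74, 0.72 and 0.19. Ern1 lay at -0.73, -1.06 and -0.72 with CpG-A + LIF, below its LIF arrays at -0.07, -0.20 and -0.27, and at -0.38, -0.33 and -0.69 with CpG-B + LIF. The groups were apart in both Edem1 and Ern1. Ddit3 lay at 1.57, 1.83 and 1.40 with CpG-A + LIF (1.52 or -1.81) and at 1.47, 1.56 and 1.45 with CpG-B + LIF (1.41 or -1.91), far from LIF arrays between 0.01 and 0.13. Hyou1 lay at 1.38, 1.23 and 1.27 with CpG-A + LIF (1.25 or -2.07) and at -1.45, -1.05 and -1.42 with CpG-B + LIF (-1.35 or 1.97), the same placing as without LIF.

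Calls in cells with LIF that were lost when 1 array was left out were those of Canx with CpG-A + LIF (adjusted p up to 0.119, without LIF replicate 1 or 2 or any CpG-A + LIF array), Txndc11 (0.0672 without CpG-A + LIF replicate 1 and 0.0932 without LIF replicate 2), Sec61a1 (0.0633 without CpG-A + LIF replicate 1 and 0.0516 without LIF replicate 3) and Spcs2 (0.0723 without LIF replicate 3 and 0.089 without CpG-A + LIF replicate 3). With CpG-B + LIF they were Hsp90b1 (0.0513 without LIF replicate 1 and 0.0648 without CpG-B + LIF replicate 2) and Derl3, which read 0.47 ± 0.16 higher (adjusted p up to 0.168, without LIF replicate 1 or 3 or CpG-B + LIF replicate 1 or 2).

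CpG-A and CpG-B, which differ in backbone and higher-order structure and are known for strong interferon induction and for maturation respectively, were compared directly at the same dose and time (n = 3 and 3). Of the 38 genes, 8 were called (21.1%) where 13% of all genes were: Xbp1, Txndc5 and Ppp1r15a were higher with CpG-A (4.42% of all genes), and Pdia4, Pdia6, Sdf2l1, Derl3 and Ssr2 were lower (6.14%). In cells with LIF, 13 were called (34.2%) where 16.9% of all genes were, 3 higher (5.63%) and 10 lower (8%) with CpG-A + LIF. The comparisons with and without LIF use separate arrays, and 7 genes were called in both (7 of the 8 and 7 of the 13), each with the same sign. This overlap was not counted over all genes either.

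Xbp1 had the smallest adjusted p of the 8. Its CpG-A arrays, from 0.47 to 0.67, did not overlap its CpG-B arrays, from -0.46 to 0.10, and it read 0.81 ± 0.15 higher with CpG-A (1.75-fold, adjusted p = 0.00124). With LIF its arrays lay at 0.24, 0.44 and 0.14 with CpG-A and at -0.51, -0.27 and -0.54 with CpG-B, again apart, a difference of 0.72 ± 0.15 (adjusted p = 0.00274). Txndc5, a carrier of the UPRE letters shown above, read 0.78 ± 0.16 higher with CpG-A (adjusted p = 0.00244) and 0.48 ± 0.16 higher with LIF (adjusted p = 0.046). Its arrays in cells with LIF lay at 0.78, 0.98 and 0.63 with CpG-A and at 0.21, 0.50 and 0.24 with CpG-B. Txndc11, the other gene with the UPRE letters, was not called between the classes, with or without LIF. Ppp1r15a read 0.71 ± 0.15 higher (adjusted p = 0.00285) and, with LIF, 0.47 ± 0.15 higher (adjusted p = 0.0371), with arrays at 1.57, 1.28 and 1.36 against 0.81, 0.97 and 1.04.

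Among the 14 chaperones and folding enzymes, 3 were called lower with CpG-A and 1, Txndc5, higher without LIF, and 6 lower and 1 higher with LIF. Pdia6 read -0.61 ± 0.12 (1.53-fold lower with CpG-A, adjusted p = 0.00201) and, with LIF, -0.75 ± 0.12 (adjusted p = 2.73e-04), where its arrays lay at 0.71, 0.63 and 0.75 with CpG-A and at 1.47, 1.51 and 1.37 with CpG-B. Pdia4 read -0.53 ± 0.13 (adjusted p = 0.00713) and -0.48 ± 0.13 (adjusted p = 0.0116). Sdf2l1 read -0.59 ± 0.17 (adjusted p = 0.0227) and -0.95 ± 0.17 (adjusted p = 5.70e-04). Without LIF, Dnajb9 was the other of the 14 to read above 0 (0.08, not called). Derl3, one of the ERSE carriers, read -0.61 ± 0.16 (adjusted p = 0.0144) and -0.63 ± 0.16 (adjusted p = 0.00929), and in cells with LIF its arrays lay at -0.37, -0.51 and -0.22 with CpG-A and at 0.37, 0.32 and 0.10 with CpG-B, with no overlap. Of the 8 genes with ERSE, 2 were called between the classes without LIF, and of the 23 without it 5 were. Ssr2 read -0.42 ± 0.13 without LIF (adjusted p = 0.0412) and -0.39 with it, which was not called. In cells with LIF the other genes called lower with CpG-A were Manf (-0.31 ± 0.10), Creld2 (-0.54 ± 0.15), Hyou1 (-0.72 ± 0.14), Sel1l (-0.53 ± 0.12), Ssr1 (-0.32 ± 0.11) and Ssr4 (-0.40 ± 0.13). Without LIF, Hyou1 read -0.42 ± 0.14 and missed the threshold (adjusted p = 0.0503).

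The calls of Xbp1, Txndc5, Ppp1r15a, Pdia4 and Pdia6 without LIF held whichever array was left out. Those of the others did not. The adjusted p of Sdf2l1 became 0.0537 and 0.121 when CpG-B replicate 1 or 2 was left out and 0.103 for CpG-A replicate 1. Derl3 was lost without CpG-B replicate 1 (0.0973) or CpG-A replicate 3 (0.0684), and Ssr2 without any of 7 arrays: every CpG-B array, CpG-A replicates 1 and 3 and replicate 1 of each CpG with LIF (up to 0.179, without CpG-A replicate 3). The count of 8 fell to 5 without CpG-B replicate 1. With LIF the count of 13 fell to 7 without replicate 1 of CpG-A + LIF or CpG-B + LIF, CpG-B + LIF replicate 2 or CpG-A + LIF replicate 3. The calls lost there with 1 array left out, each with its highest adjusted p, were those of Manf (0.13, without CpG-B + LIF replicate 1; lost without any array of the groups compared), Pdia4 (0.0708, CpG-B + LIF replicate 2; also CpG-A + LIF replicate 3), Creld2 (0.102, CpG-B + LIF replicate 2; also replicate 1 of both groups and CpG-A + LIF replicate 3) and Ppp1r15a (0.148, CpG-A + LIF replicate 1; also CpG-B + LIF replicates 1 and 2 and CpG-A + LIF replicate 3). Txndc5 was lost without 8 arrays (up to 0.167, CpG-A + LIF replicate 2), Ssr4 without 12 (up to 0.138, CpG-B + LIF replicate 2) and Ssr1 without 13 (up to 0.166, CpG-B + LIF replicate 2).

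**Figure D3:**
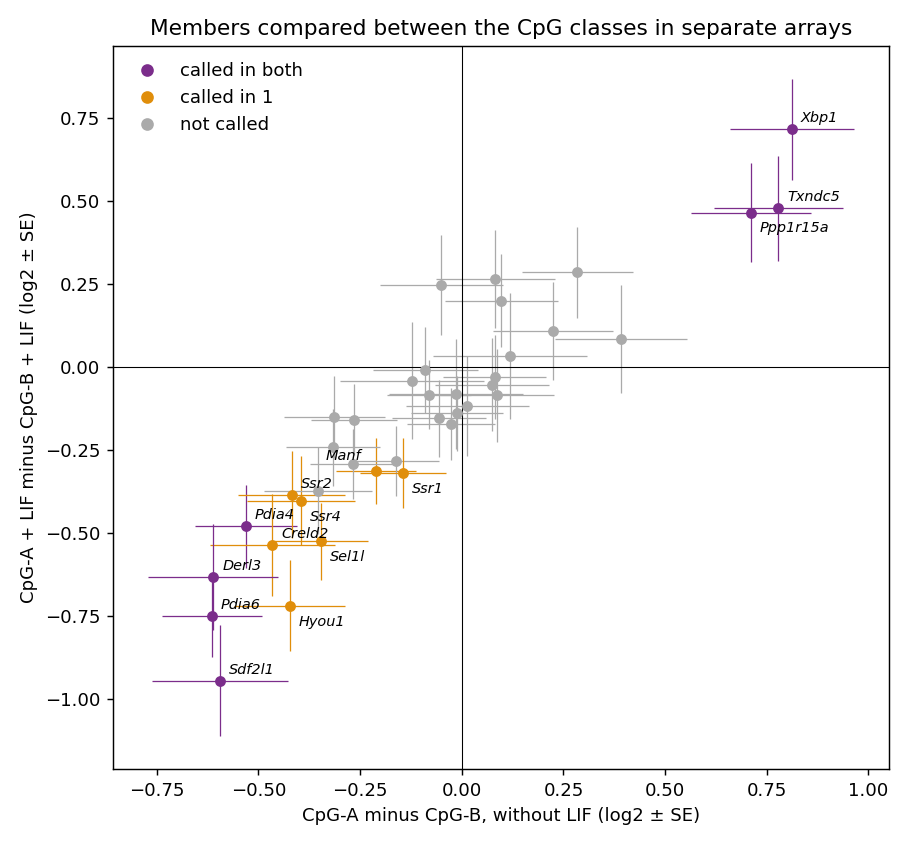
CpG-A minus CpG-B (log2 ± SE) for the 38 measured genes, without LIF (horizontal axis, n = 3 and 3 arrays) and with LIF (vertical axis, n = 3 and 3 other arrays). Purple genes were called in both comparisons, orange genes in 1 and grey genes in neither; Xbp1, Txndc5 and Ppp1r15a stand at the upper right and Pdia4, Pdia6, Derl3 and Sdf2l1 at the lower left.

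The next question was what LIF alone does to resting cells (n = 3 and 2). It gave 1 call among the 38 genes (2.63%), where 0.81% of all genes were called. An unadjusted p under 0.05 was found for 7 of the 38 genes, beside 2036 of 19751 over all genes. The called gene was Atf6, whose LIF arrays lay at 0.81, 0.56 and 0.69, above the medium arrays at 0.08 and -0.08, a reading of 0.68 ± 0.14 higher (1.61-fold, adjusted p = 0.0298). Atf6 stood at a like height in every treated group, from 0.51 in the lowest to 0.99 in the highest of the 15 treated arrays, so that its differences from medium rest on the same 2 medium arrays. The call was lost without medium replicate 1 (0.77, adjusted p = 0.142), medium replicate 3 (0.60, 0.275), LIF replicate 1 (0.62, 0.111) or LIF replicate 3 (0.68, 0.0649), and when only the medium and LIF arrays were fitted (0.184). The next largest readings were those of Txndc5 (-0.67 ± 0.18, adjusted p = 0.104; LIF arrays at -0.87, -0.52 and -0.62), Derl2 (0.61 ± 0.21, adjusted p = 0.269), Trib3 (0.57 ± 0.17, adjusted p = 0.172), Edem1 (0.55 ± 0.15, adjusted p = 0.133) and Sec61b (-0.53 ± 0.20, adjusted p = 0.322). Without LIF replicate 3, whose Edem1 value of 0.19 was below the other LIF arrays at 0.74 and 0.72, Edem1 was called (0.73, adjusted p = 0.0162). When the replicate number was added to the limma fit as a block, Txndc5 was called as well (-0.77, adjusted p = 0.0105). The chaperones read from -0.67 to 0.17, with Hspa5 at -0.12, -0.04 and -0.21 and Dnajb11 at 0.11, 0.17 and 0.23 in the LIF arrays.

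Added to CpG, LIF gave no call among these genes. With CpG-A, 0 of 38 were called, where 0.00506% of all genes were (1 gene), and readings ran from -0.31 to 0.12. An unadjusted p under 0.05 was found for 1 of the 38, beside 1200 of 19751 over all genes. With CpG-B, 0 of 38 were called, where 0.0608% of all genes were (12 genes), and readings ran from -0.25 to 0.21. An unadjusted p under 0.05 was found for 0 of the 38, beside 1529 of 19751 over all genes. Xbp1 read -0.29 ± 0.15 and -0.19 ± 0.15, and Hspa5 -0.14 ± 0.11 and -0.02 ± 0.11. With CpG-A, 26 of the 38 readings lay below 0 and with CpG-B 18, beside 9687 and 9683 of 19751 over all genes. The readings of each comparison share the same arrays, so these counts are no test of a LIF effect. The LIF effect itself was then compared between backgrounds. The interaction of LIF with CpG-A was called for 0 of 38 genes (0.0101% of all genes), and that with CpG-B for 0 (0.0962% of all genes). An unadjusted p under 0.05 was found for 3 and 6 of the 38, beside 1382 and 1942 of 19751 over all genes. The smallest p-values were those of Edem1, at -0.72 ± 0.21 in each background (adjusted p = 0.36 and 0.203), and Atf6, at -0.59 ± 0.19 and -0.68 ± 0.19 (adjusted p = 0.469 and 0.203). These interactions share the medium and LIF arrays. Without LIF replicate 3, the interaction with CpG-B was called for Edem1 (-0.90, adjusted p = 0.0473). A missed threshold does not show that LIF leaves these genes unchanged.

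**Figure D4:**
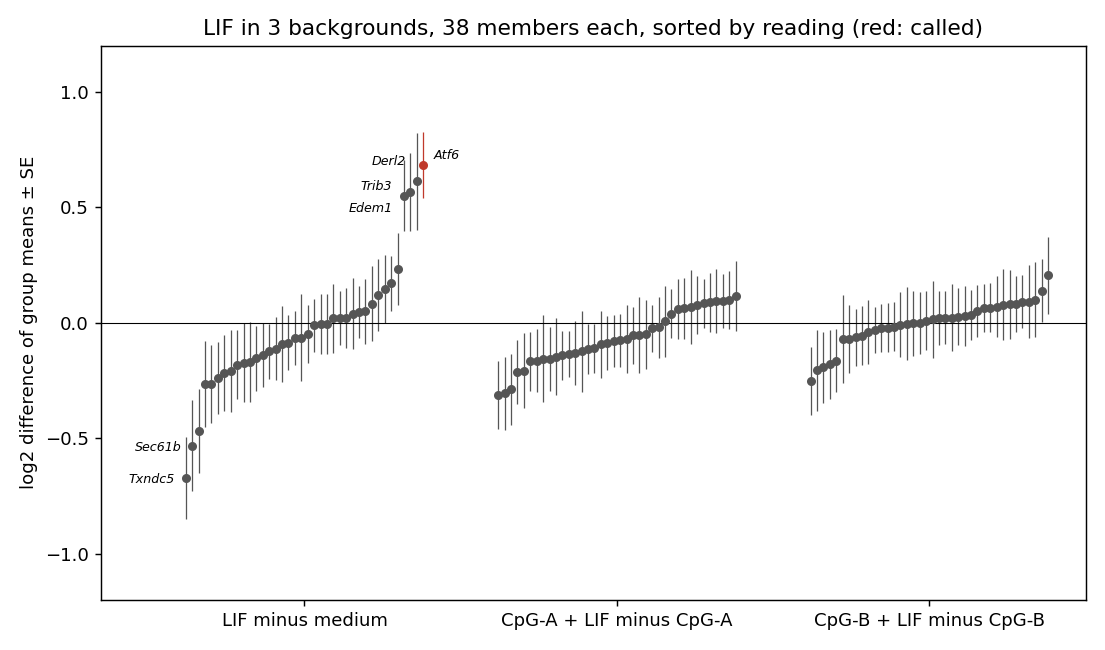
LIF effect (log2 difference of group means, points, ± SE, bars) on the 38 measured genes in medium, with CpG-A and with CpG-B, sorted by reading within each; n = 3 and 2 arrays in the first set, 3 and 3 in the others. Atf6 (red) is the single called gene, and readings run from -0.67 to 0.68 in medium, from -0.31 to 0.12 with CpG-A and from -0.25 to 0.21 with CpG-B.

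Other genes of the pathway, from lists that hold none of the 39, gave a wider view. The shares called over all genes were 16.7% with CpG-A, 19.2% with CpG-B and 13% between the classes (16.9% with LIF). The lists were chosen with earlier results of these data known and were not tested against these shares. Among 21 other ER folding genes, 8 were called with CpG-A (4 higher, 1 lower, 3 open) and 15 with CpG-B (10 higher, 5 open). Pdia3, an isomerase that works with calnexin, read 0.99 ± 0.12 higher with CpG-A and 1.14 ± 0.12, or -2.18, with CpG-B. Between the CpG classes, the nearest readings of 21 of these 21 genes were below 0 without LIF, and 21 of 21 with LIF. Of them 7 and 11 were called, 1 with an open direction each time, and the sign of the open or uncalled genes is not settled. The median readings were -0.35 and -0.44, beside 0.04 and 0.05 over all genes. Ppib, a prolyl isomerase, read -0.68 ± 0.13 (adjusted p = 0.00191), and Prdx4, an ER peroxiredoxin, read -1.18 ± 0.16 or 2.14 (adjusted p = 7.01e-05). Oligosaccharyltransferase, the enzyme that attaches N-glycans to entering chains, had 3 of 10 genes called with CpG-A, all higher, and 7 of 10 with CpG-B (6 higher, 1 open). Its 10 genes all read below 0 in CpG-A against CpG-B, 5 of them called, led by Stt3b (-0.68 ± 0.11, adjusted p = 4.74e-04) and Rpn2 (-0.64 ± 0.12, adjusted p = 0.00152).

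The lists that follow stand beside the same shares over all genes, 16.7% with CpG-A and 19.2% with CpG-B. ER-to-Golgi transport had 9 of 30 genes called with CpG-A (8 higher, 1 open) and 17 with CpG-B (12 higher, 5 open). Sec23b, a coat protein of COPII vesicles, read 1.04 ± 0.13 higher with CpG-A, and Lman1, a cargo receptor, read 1.29 ± 0.16, or -2.03, with CpG-B. Among 14 other degradation genes, 9 were called with CpG-A (6 higher, 1 lower, 2 open) and 8 with CpG-B (6 higher, 1 lower, 1 open), including Vcp, the ATPase that extracts degradation substrates, at 1.09 ± 0.13 higher with CpG-B. Among 14 other genes of the translocon and signal recognition, 4 were called with CpG-A (3 higher, 1 lower) and 8 with CpG-B (7 higher, 1 open), with Srpr, a signal recognition particle receptor subunit, at 1.08 ± 0.19 higher with CpG-A. Of 27 genes listed as ATF4 targets or parts of the integrated stress response, 14 were called with CpG-A (5 higher, 4 lower, 5 open) and 18 with CpG-B (7 higher, 2 lower, 9 open), and the median size of the readings was 0.53 and 0.80. The amino acid transporter Slc7a5 read 1.19 ± 0.16 (or -2.13) and 1.45 ± 0.16 (or -1.87), and 1.17 ± 0.16 (or -2.15) with LIF alone (adjusted p = 0.00175), while its partner Slc3a2 read lower with CpG-A (-0.94 ± 0.16, or 2.38). Of 8 other stress transducers, 4 were called with CpG-A (1 higher, 1 lower, 2 open) and 3 with CpG-B (2 higher, 1 lower), with Atf6b at 1.13 ± 0.13, or -2.19, with CpG-A and Mbtps1, a protease that cuts ATF6, at 0.70 ± 0.14 higher with CpG-B.

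By the root mean square distance of the 5 treated group means from the mean pattern of the 7 chaperones called higher with CpG-A, the closest genes outside the 39 were Rbl1 (0.0633), Psmb7 (0.0695), Slc6a9 (0.0795), Slirp (0.0968) and Vcp (0.0982). The mean pattern was -0.13 with LIF, 0.92 with CpG-A, 0.79 with CpG-A + LIF, 0.95 with CpG-B and 0.92 with CpG-B + LIF. The points share the 17 arrays, and likeness in nearest readings can join changes that differ by a factor of 10.

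Over the whole table the median SD within groups was 0.19, and 0.15 over the 38 genes. Levels are lost with the decimal marks, so the sorted cell type could not be checked by the presence of its markers, and the summed level of a marker list cannot be given. Over all genes, 16.7% were called with CpG-A, 19.2% with CpG-B, 13% between the classes and 0.81% with LIF alone. The pDC markers moved with the CpG comparisons: 6 of 11 were called with CpG-A (2 higher, 2 lower, 2 open), 8 of 11 with CpG-B (1 higher, 4 lower, 3 open) and 9 of 11 between the classes (7 higher, 1 lower, 1 open), and 0 with LIF alone. In that last comparison 5 of the 11 had an unadjusted p under 0.05, beside 2036 of 19751 over all genes. Of 5 plasma cell markers, a secretory cell with a strong unfolded protein response, 2 were called with each CpG, both open in direction (Sdc1 and Irf4). Of the other lists, 2 of 5 B cell, 1 of 5 T cell, 3 of 5 monocyte or macrophage, 2 of 5 neutrophil and 0 of 3 natural killer cell markers were called with CpG-A, and 1, 1, 3, 3 and 1 with CpG-B. Counts of 1 of 5 lie near the shares over all genes. The part of all these cell types in the results above was not tested.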

How the data were processed

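The deposited values are treated here as a score, since the authors' table holds the digits of RMA intensities without decimal marks: RMA is named in the submitters' processing notes with no version, and of 419560 cells 1 was not whole. Probe sets were named from the platform annotation, 21354 of 24680 with 1 symbol, 1275 with several and 2051 with none. For genes with several probe sets, that listing most accessions was used, and no gene was filtered. Log2 values were averaged within groups as positions on a circle of length 3.32, differences were taken to the nearest reading, and all 19751 genes were fitted with 1 coefficient a group in limma 3.58.1 (R 4.3.3), with Benjamini-Hochberg adjustment and 11 residual degrees of freedom. The number of arrays limits the precision. The procedure was run on simulated data, which does not support the directions given here. A true change of 4.64-fold or more can fold to a reading inside the direction limit with the opposite sign. Such a gene would be given the wrong direction.

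Arrays are given for the 8 genes with the smallest adjusted p in each CpG comparison with medium, for Xbp1, Atf4, Atf6, Ern1, Eif2ak3 and Ddit3, and for up to 8 members called in each other comparison. From the other lists, genes were taken among the 2 with the smallest p. The members and lists were chosen with earlier results of these data known. Alternatives were a replicate block, all probe sets, array centring, robust moderation, only the groups compared, unfolding at the widest gap and leaving out each array. Promoters were RefSeq's (GRCm38.p6), with no entry for 7 of the 39 genes.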

Additional observations from a re-analysis of the deposited data

How the results depend on the processing

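Of 131 calls among the 38 genes, 91 kept the sign of their nearest reading and the threshold in all 23 alternatives. Another 28 were lost in at least 1, and 12 turned sign in at least 1. The 91 include calls of open direction, and the direction limit was not applied again in the alternatives. Some readings inside the limit passed it there, such as that of Txndc5 with CpG-A (up to 1.26). None of the 12 had a reading inside the direction limit; each has an open direction. Unfolding at the widest gap gave 1.78 for Edem1, 1.69 for Ddit3, 1.72 for Ppp1r15a, -1.82 for Sdf2l1 and -1.87 for Hyou1 with CpG-A, and 1.74 for Pdia4 and 1.70 for Creld2 with CpG-B. In cells with LIF it gave -1.90 for Sdf2l1 and -2.07 for Hyou1 with CpG-A and 1.72 for Pdia4 and 1.95 for Creld2 with CpG-B. With 1 array left out, readings ran with CpG-A from -1.59 to 1.63 for Edem1, from -1.63 to 1.59 for Ddit3 and from -1.60 to 1.64 for Ppp1r15a, and with CpG-B from -1.59 to 1.66 for Pdia4, from -1.62 to 1.55 for Creld2 and from -1.65 to 1.66 for Ssr2. In cells with LIF and CpG-B, Pdia4 ran from -1.60 to 1.63.

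Leaving out 1 array moved the count of called genes between 24 and 27 for CpG-A, 23 and 29 for CpG-B, 0 and 1 for LIF, 5 and 10 for CpG-A against CpG-B, 7 and 14 for the same in cells with LIF, and 0 and 1 for the interaction of LIF with CpG-B. Fitting only the groups compared gave 0 for LIF, and fewer arrays entered that fit. It also ended the calls of Ssr3 with CpG-A (adjusted p = 0.105), of Hsp90b1 (0.108), Ssr1 (0.0505) and Ern1 (0.051) with CpG-B, and of Ssr2 between the classes (0.104). In cells with LIF it ended those of Canx (0.116), Txndc11 (0.0594) and Sec61a1 (0.0599) with CpG-A, of Hsp90b1 (0.0644) and Derl3 (0.05) with CpG-B, and of Manf (0.0993) and Ssr1 (0.112) between the classes. The counts for LIF added to CpG-A or CpG-B and for the interaction of LIF with CpG-A were 0 in each alternative.

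The replicate block gave 2 calls for LIF, with Txndc5 added to Atf6 (-0.77, adjusted p = 0.0105), and turned Ddit3 with CpG-A to 1.65 and Creld2 with CpG-B to 1.65. It ended the calls of Ssr3 with CpG-A (adjusted p = 0.0525) and of Ssr1 between the classes with LIF (0.0521). The block gave 26 calls for CpG-A, 29 for CpG-B and 10 for CpG-A against CpG-B. Same-numbered arrays correlated between -0.08 and 0.24 in their deviations from group means (median 0.02, 40 pairs, 6 over 0.1), so the numbers were not taken to pair the arrays, although 14 of 17 arrays correlated best with their own number.

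The lost decimal marks limit each statement on direction, and levels and signal over background cannot be given. The 2 medium arrays enter each comparison with medium, and p-values measure the spread between arrays of unstated origin.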

Other observations

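Sec61b was on the array with 3 probe sets of its own. On the third, CpG-A + LIF read 0.38 ± 0.12 higher than LIF (adjusted p = 0.0342, limma), a comparison in which the probe set used above was not called. Slc3a2, the heavy chain that pairs with Slc7a5, read -1.44 ± 0.14 or 1.88 with CpG-A + LIF and 1.56 ± 0.14 or -1.76 with CpG-B + LIF. Lman1 was lower with CpG-A than with CpG-B (-0.98 ± 0.15, adjusted p = 1.53e-04, limma), and so was Mbtps1 (-0.64 ± 0.13, adjusted p = 0.00192, limma).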
